A study of Mus musculus with 24 samples.

Results

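The nuclear genes that code for respiratory complexes III and IV, for cytochrome c and for ATP synthase were followed in mouse Neuro-2a (N2a) cells, a neuroblastoma line, at the levels of mRNA and of ribosome footprints. Members were chosen by symbol alone, as the rows of the count tables whose name begins with Uqcr, Cox4 to Cox8 or Atp5, together with Cyc1 and Cycs. The rule used no measured value, although earlier results of these data were known when it was set. They were 42 of the 12759 transcripts listed in the count tables, of which 9 belonged to complex III (with Cyc1), 15 to complex IV and 17 to ATP synthase, with Cycs as the remaining one. All 42 passed the filter on low counts in each comparison. Cox6b2, Cox8b and Cox8c had no row in these tables, and the subunits coded by mitochondrial DNA were not analysed here.

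The study asked how eIF4E3, a cap-binding protein related to eIF4E1, acts on translation when the kinase mTOR is inhibited. The 4 conditions were ctrl cells in DMSO, ctrl cells in Torin1, eIF4E3 KO cells in DMSO and KO cells in Torin1, with Torin1, an inhibitor of mTOR, given at 250 nM for 2 h and the same volume of DMSO as its vehicle. The ctrl cells had been transfected with the empty Cas9 vector and the KO cells with Cas9 vectors carrying guides against 3 exons of Eif4e3, and both were used after antibiotic selection, with no isolation of clones described. There were 3 RNA-seq libraries per condition and 3 Ribo-seq libraries per condition, except for ctrl cells in DMSO, where replicates 1 and 3 of the Ribo-seq were used. Replicates were different passages of the same cells, so p-values measure the spread between passages. Ribo-seq sequences the short stretch of mRNA that a ribosome covers, and the ratio of footprints to mRNA is the translation efficiency (TE).

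Counts were 17048192 to 28911595 per RNA-seq library and 669358 to 5287270 per Ribo-seq library, the shallowest being replicate 3 of ctrl cells in DMSO. The members took 1.77 to 2.35% of the mRNA counts and 1.85 to 2.90% of the footprint counts. Eif4e3 itself was lower in the KO than in ctrl cells, with log2 fold changes of -2.05 in mRNA and -2.69 in footprints in DMSO. In Torin1 they were -1.63 in mRNA and -1.93 in footprints. The neuroendocrine marker Chgb was present in all libraries, whereas Th was between 0 and 7.76 CPM (counts scaled to library size) in the Ribo-seq.

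Complex III passes electrons from ubiquinol to cytochrome c, complex IV passes them on to oxygen, and ATP synthase uses the proton gradient that both help to build. Each of the 3 complexes joins subunits coded in the nucleus, which are made on cytosolic ribosomes and imported, with subunits coded in mitochondrial DNA, and the c-ring and the catalytic head of ATP synthase come wholly from nuclear genes. Translation of many nuclear-coded mitochondrial mRNAs is known to depend on mTOR and on the eIF4E-binding proteins. The mRNAs most sensitive to mTOR inhibitors, those of cytosolic ribosomal proteins, begin with a C followed by a run of pyrimidines, the 5′ terminal oligopyrimidine motif.

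The first 20 bases of the annotated 5′ transcript leader (5′ TL) are shown for a selection of 12 members. It holds some of those whose footprints fell most with Torin1, those that begin with a long pyrimidine run, and paralogues of these. Cycs and Cox7b2, whose footprints rose in KO cells, are shown as well. They were read from GENCODE transcripts on GRCm38 (mm10), 5′ to 3′, and capitals mark the unbroken run of pyrimidines from the first base.
Atp5g2: CTCTatccatggagaaaagc
Atp5g1: gggtgggggagctgagcgct
Atp5g3: aagagccgcaccgcgcttgc
Cox7a2l: CCTTTTCTagggcggtcgca
Cox7a2: ggatagcttcggaggtccgg
Uqcrfs1: CCTTTCCggcgtcgcgctga
Atp5mpl: CTTTCCCattctgtagcaga
Cox6b1: CTCTCgcagcttccggccag
Atp5d: Tgcgcacgggctcctgcgtc
Atp5c1: gctcacgagatttagcgaga
Cycs: gggcggaacaagtgtggttg
Cox7b2: atctctttttagcttttgcc
The transcript of Atp5g2 spans chr15:102662864-102671127 (- strand), that of Cox7a2l chr17:83501918-83514330 (- strand) and that of Cycs chr6:50562563-50566538 (- strand). Of these 12 leaders, those of Cox7a2l, Uqcrfs1, Atp5mpl and Cox6b1 began with C and at least 4 further pyrimidines. The leader of Atp5g2 fell short of that definition, with 4 pyrimidines in all, and those of its paralogues Atp5g1 and Atp5g3 began with a purine.

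Levels differed widely between members. Per kilobase of coding sequence (CDS), the median member had 665 CPM in mRNA and 1150 CPM in footprints in ctrl cells in DMSO. Atp5b, the catalytic beta subunit of ATP synthase, had the highest mRNA level of the members, 4253 ± 489.6 CPM per kb (mean ± SD over libraries, as in all such values). In footprints the highest member of complex IV was Cox7c, a small membrane subunit, with 4531 ± 874 CPM per kb, followed by Cox4i1 with 4006 ± 858, and these levels differed by less than their spread. Atp5g3, one of 3 genes for the c subunit that forms the rotor ring, was highest in ATP synthase with 4322 ± 551 CPM per kb, and Uqcrq, a small subunit, in complex III with 2071 ± 1038, where the SD was carried by the gap between replicates 1 and 3. The lowest were the tissue-specific forms of complex IV subunits. Cox4i2 had 10.6 ± 0.988 CPM per kb in mRNA, Cox7a1 12.7 ± 4.88 and Cox6a2 17.1 ± 3.70, and neighbours in this order did not differ beyond their spread.

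**Figure D1:**
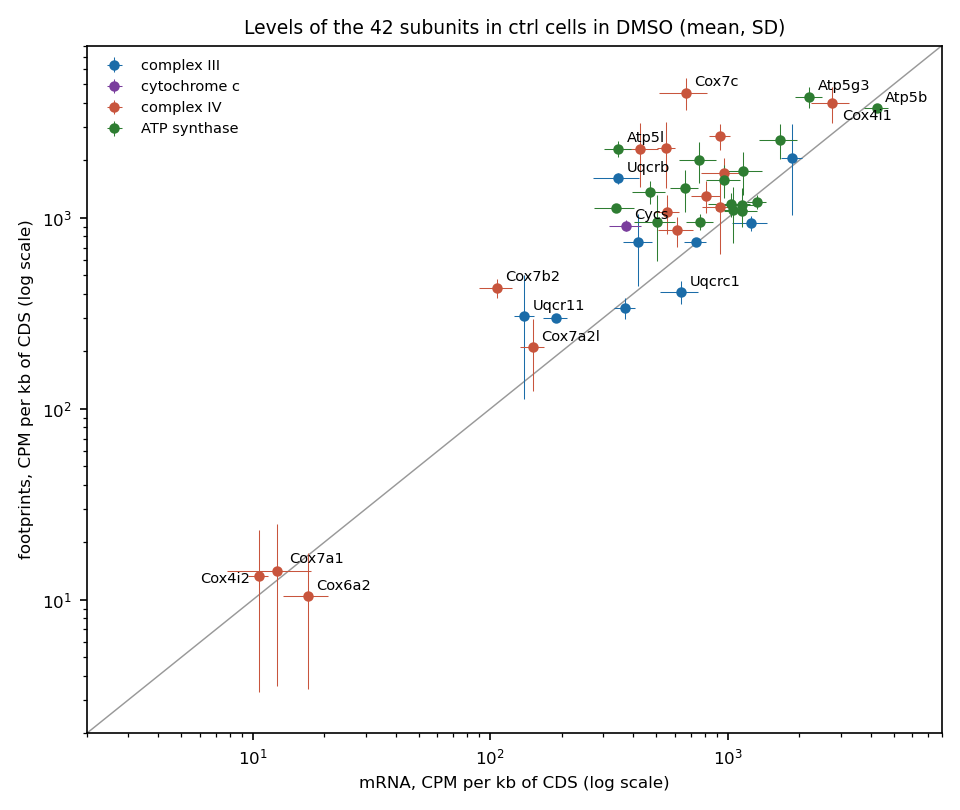
Footprint level against mRNA level of the 42 members in ctrl cells in DMSO, both in CPM per kb of CDS on log scales, with points at the mean and bars of 1 SD over 3 RNA-seq and 2 Ribo-seq libraries. The grey line marks equal values. Cox4i2, Cox6a2 and Cox7a1 lie apart from the other 39 members, near 10 CPM per kb.

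The ratio of footprints to mRNA was not the same for subunits of one complex. On the log2 scale and per CPM, it ranged in ctrl cells in DMSO from -0.64 for Uqcrc1, a large core subunit on the matrix side, to 2.22 for Uqcrb within complex III, and from -0.18 for Atp5b to 2.73 for Atp5l, a small membrane subunit, within ATP synthase. In complex IV it ran from -0.70 for Cox6a2 to 2.76 for Cox7c. Some of these genes have near-identical copies in the genome. Every 28-base window of the coding sequence occurred elsewhere in the genome for Atp5g1, Atp5g2, Atp5l, Atp5md, Cox7c and Cycs, more than 80% of windows did so for 10 members in all, and none for 12. Counts of such genes are uncertain where reads could be split between copies. Of the 42, only Cycs shared its windows with another transcript that the tables list.

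In mRNA, no member was called in ctrl cells after Torin1, where called means an adjusted p under 0.05 in the quasi-likelihood test of edgeR, with Benjamini-Hochberg adjustment over all transcripts tested. Of all transcripts, 2.73% were called. The 42 log2 fold changes were all below 0, between -0.51 (Atp5g1) and -0.11 (Cox7a2l), with a median of -0.29 where the median of all transcripts was 0.00. At an unadjusted p under 0.05 there were 24 members (57.1%), where 23% of all transcripts were, and DESeq2 called 1. With the replicate number as a block, 5 were called lower, namely Atp5e, Atp5g1, Cox7c, Cycs and Uqcr11, where 3.19% of all transcripts were. Without replicate 3 of the ctrl DMSO RNA-seq 21 were called lower, where 5.21% of all transcripts were. In KO cells, where 9.97% of all transcripts were called, Cox5a alone was called lower (-0.28 ± 0.08, adjusted p = 0.0446), where 3.74% of all transcripts were. The Cox5a mRNA was at 208, 238 and 202 CPM in the DMSO libraries of the KO and at 183, 183 and 167 CPM in the Torin1 libraries, in the order of the replicate numbers, with no overlap. The members' median was -0.16 in KO cells and 40 of 42 lay below 0. The blocked fit called 11 lower there, where 6.52% of all transcripts were, and leaving out 1 library gave between 0 and 8 calls, with Cox5a called in 2 of 6 fits.

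More members passed the test in footprints than in mRNA. In ctrl cells, Torin1 lowered the footprints of 18 members and raised none, where 9.93% of all transcripts were called lower and 15.6% were called in either direction. The median log2 fold change of the members was -0.42. In KO cells, 32 were called lower and 2 higher, against 22.1% lower, 18.5% higher and 40.6% in either direction for all transcripts, with a median of -0.53. All 18 members called lower in ctrl cells were also called lower in the KO, which is 56.25% of the longer list. No library was used in both of these comparisons. Over the 42 members their fold changes had a Pearson r of 0.91 and a Spearman rho of 0.81, and 40 had the same sign, given as a description since genes are not independent replicates. The numbers of members for which all Torin1 libraries lay below all DMSO libraries were 18 in ctrl and 33 in KO cells, where 21.9 and 25% of all transcripts did so. Those for which they lay above were 4 and 2, against 21 and 24.5% of all transcripts.

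**Figure D2:**
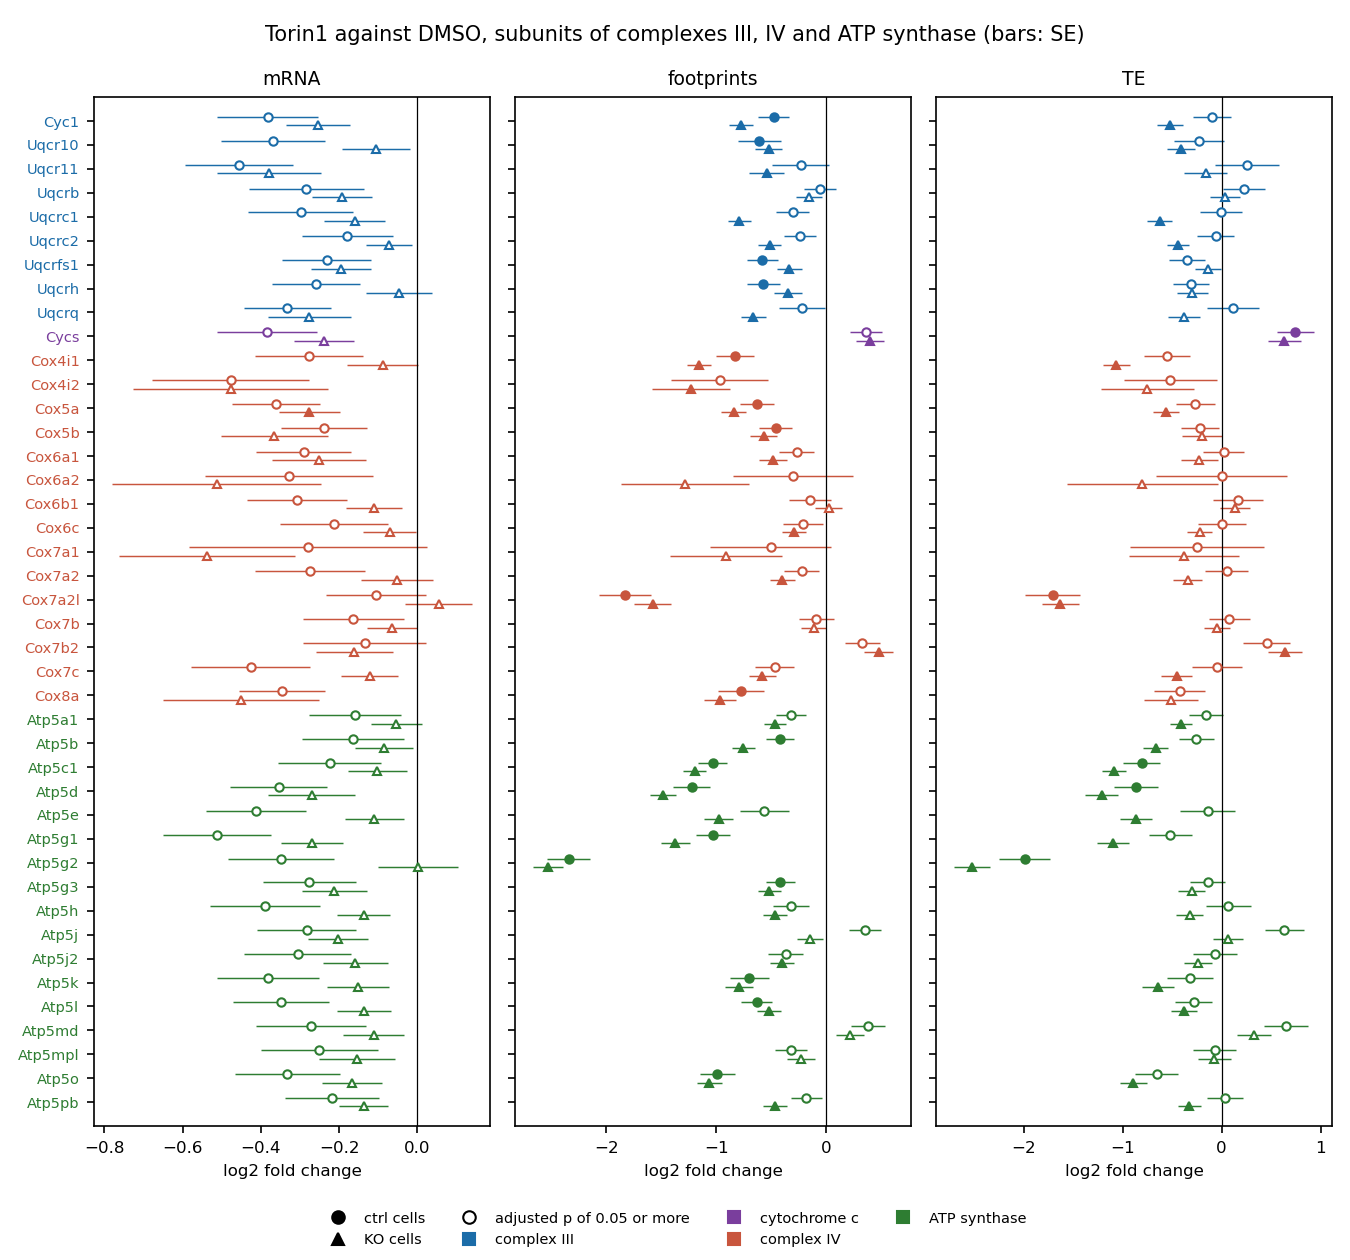
Log2 fold change in Torin1 against DMSO for each of the 42 members in mRNA, footprints and TE, in ctrl cells (circles) and KO cells (triangles), with bars of 1 SE. Filled symbols have an adjusted p under 0.05. The mRNA axis is narrower than the others, and Atp5g2 and Cox7a2l stand farthest to the left in footprints and TE.

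In ATP synthase, 9 of 17 members were called lower in ctrl cells and 14 of 17 in the KO. The largest fall of any member was in Atp5g2, the second of the c subunit genes. Its footprints were at 533 and 309 CPM in ctrl cells in DMSO (replicates 1 and 3) and at 99.2, 82.8 and 74.9 CPM in Torin1, and in the KO at 450.3, 386 and 474 in DMSO and 92.6, 59.8 and 77.0 in Torin1. The lowest DMSO library was above the highest Torin1 library by a wide margin in both cell types. The log2 fold changes were -2.34 ± 0.19, adjusted p = 5.64e-08 in ctrl cells and -2.53 ± 0.14, adjusted p = 2.35e-16 in the KO (± SE).

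The rotor shaft of the enzyme moved in the same direction. Atp5c1, the gamma subunit of the shaft, fell from 1013 and 943 CPM to 485, 449 and 504 in ctrl cells (-1.03 ± 0.13, adjusted p = 2.03e-05) and from 986, 1096 and 1143 to 502, 462 and 462 in the KO (-1.19 ± 0.10, adjusted p = 3.97e-11). Atp5d, the delta subunit at the foot of the shaft, fell from 684 and 428 CPM to 266, 225 and 238 in ctrl cells (-1.22 ± 0.17, adjusted p = 4.59e-05) and from 464, 426 and 563 to 189, 176 and 160.3 in the KO (-1.48 ± 0.12, adjusted p = 5.06e-12). In each case the Torin1 libraries lay below the DMSO libraries without overlap. Atp5e, the epsilon subunit beside it, was at 268 and 187 CPM in ctrl DMSO and 230.2, 124 and 129 in ctrl Torin1, where replicate 1 of Torin1 lay within the DMSO range and the change did not pass the test (-0.56 ± 0.22, adjusted p = 0.092). In the KO it fell from 245, 198 and 175 to 95.6, 117 and 105 CPM (-0.98 ± 0.13, adjusted p = 3.18e-07).

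The catalytic head gave smaller values. Atp5b fell by 0.42 on the log2 scale in ctrl cells (adjusted p = 0.0335) and by 0.75 in the KO, and Atp5a1, the alpha subunit, had -0.32 ± 0.13, adjusted p = 0.117 in ctrl cells and fell by 0.47 in the KO. Of the peripheral stalk, Atp5o (the subunit that joins stalk to head) fell by 0.99 in ctrl and 1.06 in KO cells, whereas Atp5pb and Atp5h passed the test in the KO alone, at -0.46 and -0.46. Atp5j, another stalk subunit, was at 489.9 and 404 CPM in ctrl DMSO and 643, 548 and 537 in ctrl Torin1, all Torin1 libraries being higher, but neither this nor the KO difference passed the test (0.35 ± 0.15 and -0.14 ± 0.12). Among the small membrane subunits, Atp5k fell from 294 and 389 to 239.6, 164 and 221 CPM in ctrl cells (-0.70 ± 0.17, adjusted p = 0.0103) and from 304, 279 and 209 to 162, 157 and 142 in the KO (-0.80 ± 0.13, adjusted p = 6.77e-06). Atp5l fell by 0.63 and 0.52, Atp5j2 by 0.40 in the KO, and Atp5md and Atp5mpl passed in neither cell type, with 0.38 and -0.32 in ctrl cells. When each library was left out in turn, the ctrl call was kept in 1 of 5 fits for Atp5b and in 4 of 5 for Atp5k and Atp5l.

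In complex IV, 5 of 15 members were called lower in ctrl cells and 10 of 15 in the KO, with Cox7b2 called higher there. Cox7a2l, a form of subunit 7a known for joining complexes III and IV in supercomplexes, fell most. Its footprints were at 91.4 and 50.1 CPM in ctrl DMSO and 24.6, 21.3 and 19.9 in ctrl Torin1, and at 66.3, 72.1 and 60.7 and 25.1, 17.7 and 25.1 in the KO. No library overlapped between treatments, and the log2 fold changes were -1.83 ± 0.23, adjusted p = 1.63e-05 in ctrl and -1.58 ± 0.17, adjusted p = 3.57e-09 in KO cells. Its mRNA was between 45.3 and 56.8 CPM in all ctrl libraries, with a log2 fold change of -0.11 ± 0.13. Without replicate 1 of ctrl DMSO the footprint change in ctrl cells was -1.20 (adjusted p = 0.0362).

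Cox4i1, the widely expressed form of subunit 4, which contacts the catalytic core, fell from 2353 and 1733 CPM to 1431, 965 and 1072 in ctrl cells (-0.83 ± 0.17, adjusted p = 0.00248) and from 2004, 1940.2 and 1655 to 869, 896 and 781 in the KO (-1.16 ± 0.11, adjusted p = 1.37e-10). Cox5a, its neighbour on the matrix side, fell from 551 and 394 to 321, 322 and 288 CPM in ctrl (-0.63 ± 0.15, adjusted p = 0.00928) and from 513, 469 and 471 to 308, 251 and 261 in KO cells (-0.84 ± 0.11, adjusted p = 2.55e-07). The groups did not overlap for either gene in either cell type. Cox8a, a small membrane subunit, had 616 and 355 CPM in ctrl DMSO and 377, 231 and 269 in ctrl Torin1, where replicate 1 of Torin1 exceeded replicate 3 of DMSO (-0.77 ± 0.21, adjusted p = 0.0168), and fell from 433, 318 and 255 to 203, 174 and 141 in the KO (-0.97 ± 0.15, adjusted p = 2.88e-06). Cox5b fell by 0.46 and 0.57 in the 2 cell types. Cox6a1, Cox6c, Cox7a2, Cox7c and Cox4i2 passed the test in the KO alone, between -1.23 (Cox4i2) and -0.29 (Cox6c), and Cox6a2, Cox6b1, Cox7a1 and Cox7b in neither. Without replicate 1 of ctrl DMSO the ctrl calls ended for Cox5a (-0.34, adjusted p = 0.25), Cox5b (-0.29, adjusted p = 0.343) and Cox8a (-0.29, adjusted p = 0.47), and they were kept in 3, 2 and 2 of 5 fits with 1 library left out. DESeq2 did not call Cox8a in ctrl cells (adjusted p = 0.245). In the KO, Cox6c was called in 2 of 6 such fits, with -0.19 (adjusted p = 0.238) without replicate 3 of Torin1, and Cox6a1 had -0.28 (adjusted p = 0.0426) without replicate 1 of DMSO.

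In complex III, 4 of 9 members were called lower in ctrl cells and 8 of 9 in the KO, where Uqcrb (-0.16 ± 0.12) was the exception. Uqcrfs1, the Rieske iron-sulfur protein, fell from 249.9 and 246 CPM to 159, 162 and 175 in ctrl cells (-0.58 ± 0.14, adjusted p = 0.00833) and from 213, 218 and 244 to 197, 176 and 168 in the KO (-0.33 ± 0.11, adjusted p = 0.0188). Uqcrh, the hinge protein that helps cytochrome c to dock, fell from 206 and 200.3 to 152, 128 and 133 CPM in ctrl (-0.57 ± 0.15, adjusted p = 0.0125) and from 202, 167 and 141 to 132, 135 and 139.7 in KO cells (-0.34 ± 0.13, adjusted p = 0.0299). Neither overlapped between treatments, although replicate 3 of DMSO and replicate 3 of Torin1 were nearly level for Uqcrh in the KO. Cyc1, cytochrome c1, fell from 974 and 863 to 742, 626 and 619.8 CPM in ctrl (-0.48 ± 0.14, adjusted p = 0.0278) and from 775, 669 and 724 to 413, 417 and 454 in KO cells (-0.77 ± 0.11, adjusted p = 4.95e-07). With 1 library left out, the ctrl calls were kept in 3 of 5 fits for Uqcrfs1 and in 2 of 5 for Uqcrh and Cyc1, and the KO calls in 3 of 6 for Uqcrfs1 and 1 of 6 for Uqcrh. Uqcrh in the KO had -0.21 (adjusted p = 0.197) without replicate 1 of DMSO, and DESeq2 did not call it (adjusted p = 0.0623).

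The core subunit Uqcrc1 passed the test in the KO alone. It was at 650.1 and 535 CPM in ctrl DMSO and 563, 449.8 and 437 in ctrl Torin1, with overlap (-0.31 ± 0.15, adjusted p = 0.189), and fell from 538, 521 and 563 to 316, 303 and 331 in the KO (-0.79 ± 0.11, adjusted p = 3.03e-07). Uqcrq had 698 and 333 CPM in ctrl DMSO, a range that held all ctrl Torin1 libraries (490.0, 473 and 407), and fell from 745, 653 and 531 to 417, 435 and 383 in the KO (-0.66 ± 0.12, adjusted p = 2.87e-05). Uqcr10 fell by 0.61 in ctrl and 0.52 in KO cells, and Uqcrc2 and Uqcr11 by 0.51 and 0.54 in the KO. The ctrl value of Uqcr10 rested on replicate 1 of DMSO, without which it was -0.021 (adjusted p = 0.978), and its call was kept in 1 of 5 fits with 1 library left out.

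Cycs, the soluble electron carrier cytochrome c, stood apart from its partners. Its footprints were at 276 and 304 CPM in ctrl DMSO and 391, 365 and 355 in ctrl Torin1, all Torin1 libraries being higher, with 0.36 ± 0.14, adjusted p = 0.0954. In the KO they were at 289, 348 and 279 and 515, 357 and 349 CPM, where replicate 3 of Torin1 was level with replicate 2 of DMSO, and the rise passed the test (0.39 ± 0.13, adjusted p = 0.0138). Without replicate 1 of KO Torin1, the highest of these libraries, the difference was 0.18 (adjusted p = 0.269). The coding windows of Cycs are shared with another listed transcript, and how reads were divided between them was not tested.

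The counts of calls rested in part on the 2 ctrl DMSO Ribo-seq libraries, since leaving out replicate 3 gave 29 lower and 1 higher in ctrl cells, where 12.5% of all transcripts were called lower, and leaving out replicate 1 gave 9 lower and 1 higher, where 5.19% were. Leaving out replicate 2 or 3 of Torin1 gave 9 calls, which are not set against the share of all transcripts called in those fits. Footprints are relative to the other transcripts of a library, and with scaling to library size alone, which moved the median of all transcripts from 0.02 to 0.23 in ctrl and to 0.26 in KO cells, the members split 8 lower and 4 higher (Atp5j, Atp5md, Cox7b2 and Cycs) in ctrl and 21 lower and 3 higher (Atp5md, Cox7b2 and Cycs) in KO cells. Of all transcripts, 6.4% were then called lower and 15.8% higher in ctrl cells, and 14.2% lower and 34.8% higher in the KO.

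TE, tested as the interaction of assay and treatment, separated the members for which footprints fell beyond mRNA. In ctrl cells 4 were called lower and 1 higher, where 4.29% of all transcripts were called lower, 0.383% higher and 4.68% in either direction. They were Atp5g2 (-1.99 ± 0.26, adjusted p = 2.29e-05), Cox7a2l (-1.71 ± 0.28, adjusted p = 0.000331), Atp5d (-0.87 ± 0.22, adjusted p = 0.0244) and Atp5c1 (-0.81 ± 0.19, adjusted p = 0.0107), with Cycs higher (0.74 ± 0.19, adjusted p = 0.0232). Without replicate 1 of ctrl DMSO Ribo-seq, Cox7a2l had -1.10 (adjusted p = 0.0895) and Atp5d -0.47 (adjusted p = 0.328). With each library left out in turn, Atp5g2 was called in 11 of 11 fits, Cox7a2l in 10, Atp5c1 in 9 and Atp5d and Cycs in 5. In KO cells 19 were called lower and 2 higher, where 17.8% of all transcripts were called lower, 10.6% higher and 28.4% in either direction. The 4 lower ones in ctrl were among them (21.05% of the KO list), as was Cycs among those higher. Over the 42 members the fold changes in the 2 cell types had a Pearson r of 0.91 and a Spearman rho of 0.77. The sign was the same for 33 members.

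By complex, TE in KO cells was called lower for 4 of 9 members of complex III (Cyc1, Uqcr10, Uqcrc1 and Uqcrc2), 4 of 15 of complex IV (Cox4i1, Cox5a, Cox7a2l and Cox7c) and 11 of 17 of ATP synthase. Below -1 were Atp5g2 (-2.52), Cox7a2l (-1.63), Atp5d (-1.21), Atp5g1 (-1.10), Atp5c1 (-1.09) and Cox4i1 (-1.06). Cox7b2 (0.64 ± 0.17, adjusted p = 0.00579) and Cycs (0.64 ± 0.17, adjusted p = 0.00523) were called higher. The members' median TE change was -0.12 in ctrl cells against -0.38 in the KO, and the ctrl median was 0.15 without replicate 1 of ctrl DMSO Ribo-seq. With scaling to library size alone, which moved the median of all transcripts from -0.01 to 0.16 in ctrl and to 0.24 in KO cells, the calls split 3 lower and 3 higher (Atp5j, Atp5md and Cycs) in ctrl and 10 lower and 4 higher (Atp5md, Cox6b1, Cox7b2 and Cycs) in KO cells. Of all transcripts, 3.12% were then called lower and 1.75% higher in ctrl cells, and 11.3% lower and 25.6% higher in the KO. With TMM scaling and 1 library left out, the KO calls of Atp5l, Atp5pb, Cox7c and Uqcr10 were kept in 7, 4, 7 and 5 of 12 fits, and Cox7c had -0.26 (adjusted p = 0.128) without replicate 1 of KO DMSO Ribo-seq.

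Paralogous genes for the same subunit held different shares of the footprints with and without Torin1. The 3 c subunit genes code for precursors that differ in their import sequence but yield the same mature protein. Of the summed footprints of the 3 genes per kb, Atp5g2 held 14.5 ± 3.15% in ctrl DMSO and 4.80 ± 0.45% in ctrl Torin1, and 17.6 ± 1.62% and 5.45 ± 0.85% in the KO. The share of Atp5g3 was 67.1 ± 2.66% in DMSO and 80.7 ± 2.13% in Torin1 in ctrl cells, and 65.7 ± 1.81% and 83.0 ± 2.28% in the KO. The libraries of the 2 treatments did not overlap in either share. In mRNA the share of Atp5g2 was between 12.3 and 14.2% in the 4 conditions and that of Atp5g3 between 59.1 and 62.3%.

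Atp5g3 footprints themselves fell, from 2007 and 1675 CPM to 1414, 1391 and 1347 in ctrl (-0.42 ± 0.14, adjusted p = 0.0449) and from 1771, 1468 and 1499 to 1162, 1059.9 and 1129 in KO cells (-0.52 ± 0.11, adjusted p = 0.000187). Atp5g1 lay between its paralogues, with 535 and 438 CPM in ctrl DMSO and 286, 228 and 209 in ctrl Torin1 (-1.03 ± 0.16, adjusted p = 0.000127), and 434, 342 and 384 and 183, 150.2 and 117 in the KO (-1.37 ± 0.13, adjusted p = 3.37e-10). The ctrl change of Atp5g3 was -0.28 (adjusted p = 0.3) without replicate 1 of DMSO, and it was called in 1 of 5 fits with 1 library left out. For all 3 genes the treatments did not overlap in either cell type. The coding windows of Atp5g1 and Atp5g2 all occur elsewhere in the genome, and those of Atp5g3 do not.

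In the 7a family, Cox7a2l held 10.6 ± 2.14% of the footprints per kb in ctrl DMSO and 4.13 ± 0.02% in ctrl Torin1, and 10.9 ± 1.45% and 5.21 ± 1.15% in the KO, while its mRNA share was between 13.6 and 16.01%. Cox7a2, which held most of the family's mRNA, had 494 and 376 CPM of footprints in ctrl DMSO and 428, 366 and 341 in ctrl Torin1, with overlap (-0.22 ± 0.16, adjusted p = 0.358), and fell from 431, 372 and 409 to 346, 309 and 274 in the KO (-0.40 ± 0.11, adjusted p = 0.0049), a call kept in 5 of 6 fits with 1 library left out. Cox7a1, the heart and muscle form, was at 3.95, 2.72 and 3.82 CPM in KO DMSO and 1.32, 2.39 and 1.71 in KO Torin1, with -0.91 ± 0.51, adjusted p = 0.153. Its footprints in ctrl cells were at 5.28 and 1.62 CPM in DMSO and 2.17, 2.31 and 5.11 in Torin1.

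Cox7b2, a form of subunit 7b known from testis, was the complex IV member that rose. Its footprints were at 126, 112 and 102 CPM in KO DMSO and 188, 155 and 133 in KO Torin1, with no overlap (0.48 ± 0.13, adjusted p = 0.00381), and at 98.6 and 116 and 137, 138 and 119.8 in ctrl cells (0.33 ± 0.16, adjusted p = 0.183). The rise in the KO no longer passed the test without replicate 1 of KO Torin1 (0.33, adjusted p = 0.0646). Cox7b was at 236 and 183 and 219, 206 and 179.9 CPM in ctrl and 247, 241 and 277 and 264, 213 and 237 in KO cells, with overlap in both (-0.09 ± 0.16 and -0.12 ± 0.11). Cox7b2 made up 14.9 ± 0.64% of the 7b mRNA per kb in ctrl DMSO. Its share of the footprints was 33.6 ± 6.63% in ctrl DMSO and 38.9 ± 0.87% in ctrl Torin1, with overlap. In the KO that share was 30.2 ± 3.51% in DMSO and 39.3 ± 3.43% in Torin1, without overlap.

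The remaining tissue forms were minor in both assays. Cox4i2, the form tied to lung and to low oxygen, was at 13.4, 11.5 and 6.94 CPM of footprints in KO DMSO and 3.09, 6.70 and 3.99 in KO Torin1 (-1.23 ± 0.35, adjusted p = 0.00612), and at 10.6 and 3.23 and 4.34, 4.63 and 4.54 in ctrl cells (-0.97 ± 0.44, adjusted p = 0.152). Its KO change was -0.98 (adjusted p = 0.0535) when replicate 1 of KO Torin1 was left out. It held less than 1% of the subunit 4 mRNA and footprints. Cox6a2, the heart and muscle form of subunit 6a, was at 2.37, 3.14 and 2.78 CPM in KO DMSO and 0.441, 1.91 and 1.14 in KO Torin1, and did not pass the test (-1.28 ± 0.58, adjusted p = 0.0786). In ctrl cells it was at 4.56 and 1.62 and 5.07, 2.31 and 2.84 CPM.

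**Figure D3:**
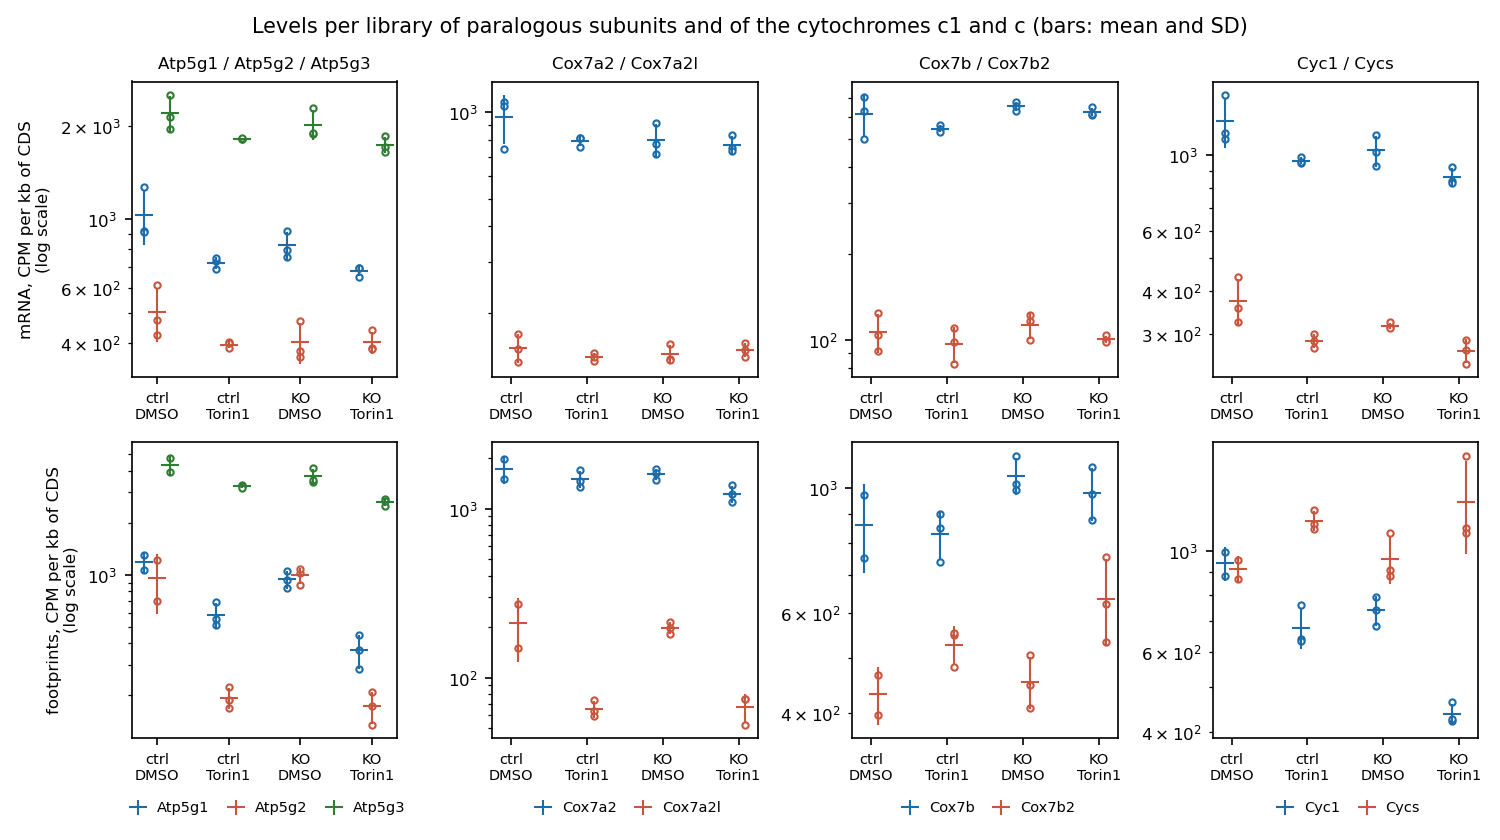
Levels per library (open circles) in CPM per kb of CDS on log scales, for mRNA (upper row) and footprints (lower row), of the c subunit genes, the 7a and 7b families and the cytochromes c1 and c, with mean and SD. Atp5g2 and Cox7a2l are lower in footprints in both Torin1 conditions, with little of this seen in mRNA. Cycs lies above Cyc1 in footprints in both Torin1 conditions and also in KO cells in DMSO. In ctrl cells in DMSO the footprint libraries of these genes overlap, and in mRNA Cycs lies below Cyc1 throughout.

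Between KO and ctrl cells in DMSO, no member was called in mRNA, footprints or TE by edgeR, where 0.0183%, 0.0279% and 0% of all transcripts were called. At an unadjusted p under 0.05 there were 3, 3 and 0 members, where 5.91, 7.9 and 4.07% of all transcripts were, and DESeq2 called 0 in each. The medians were -0.16 in mRNA, -0.11 in footprints and 0.08 in TE. The blocked fit called 8 members lower in mRNA (Atp5e, Atp5g1, Atp5g2, Atp5h, Cox4i1, Cox6b1, Cyc1 and Uqcrc1), where 2.47% of all transcripts were, and none in footprints or TE. The median in footprints was 0.15 without replicate 1 of ctrl DMSO, and that in TE was -0.021 without replicate 3.

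In Torin1, the footprints of 12 members were lower in KO than in ctrl cells and of none higher, where 4.01% of all transcripts were called lower and 6.03% in either direction. They were 2 of 9 in complex III, 4 of 15 in complex IV and 6 of 17 in ATP synthase, and the members' median was -0.17. This comparison uses the same KO Torin1 libraries as the one of Torin1 with DMSO in the KO, so both are not independent of each other. For 14 members all KO libraries lay below all ctrl libraries, as for 12.9% of all transcripts, and for none above.

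**Figure D4:**
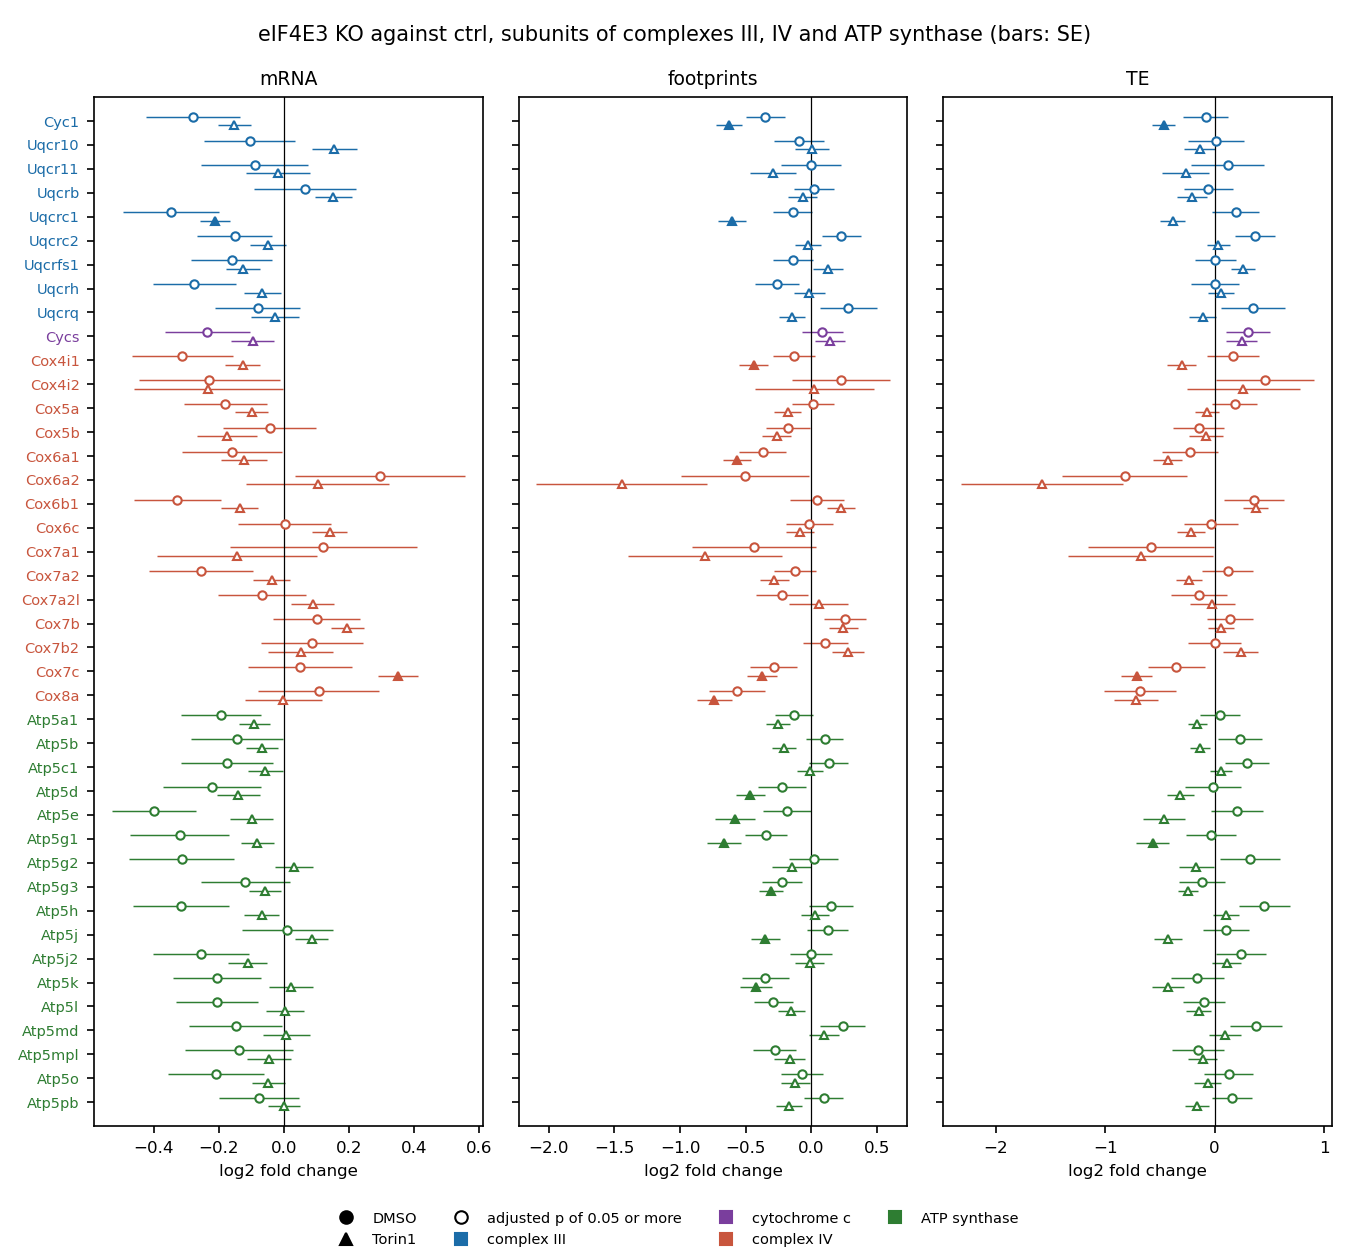
Log2 fold change in KO against ctrl cells for each of the 42 members in mRNA, footprints and TE, in DMSO (circles) and Torin1 (triangles), with bars of 1 SE. Filled symbols have an adjusted p under 0.05. In Torin1, 12 members are filled in footprints, 3 in TE and 2 in mRNA, and in DMSO none.

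Of complex III, Cyc1 was at 742, 626 and 619.8 CPM in ctrl Torin1 and 413, 417 and 454 in KO Torin1 (-0.63 ± 0.10, adjusted p = 5.03e-05). Uqcrc1 was at 563, 449.8 and 437 CPM in ctrl and 316, 303 and 331 in KO cells (-0.61 ± 0.11, adjusted p = 0.000198). For both, each KO library lay below each ctrl library. The Rieske protein Uqcrfs1, which fell with Torin1 in both cell types, had 0.13 ± 0.11 here.

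Of complex IV, Cox8a was at 377, 231 and 269 CPM in ctrl and 203, 174 and 141 in KO cells (-0.74 ± 0.13, adjusted p = 0.000271), and Cox6a1 at 417, 317 and 390.5 and 247, 268 and 240.1 (-0.57 ± 0.11, adjusted p = 0.000654). Cox4i1 was at 1431, 965 and 1072 and 869, 896 and 781 CPM (-0.44 ± 0.11, adjusted p = 0.00809), and Cox7c at 802, 578 and 521 and 466, 519 and 473 (-0.38 ± 0.11, adjusted p = 0.0361). All KO libraries lay below all ctrl libraries for these 4 genes, although replicate 2 of the KO and replicate 3 of the ctrl were nearly level for Cox7c. Replicate 1 was the highest ctrl library for each of them. Cox7a2l, which Torin1 lowered most in this complex, had 0.06 ± 0.23.

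Of ATP synthase, Atp5g1 was at 286, 228 and 209 CPM in ctrl and 183, 150.2 and 117 in KO cells (-0.67 ± 0.13, adjusted p = 0.000654), and Atp5d at 266, 225 and 238 and 189, 176 and 160.3 (-0.47 ± 0.11, adjusted p = 0.00621). Atp5e was at 230.2, 124 and 129 and 95.6, 117 and 105 CPM (-0.58 ± 0.15, adjusted p = 0.0131), Atp5k at 239.6, 164 and 221 and 162, 157 and 142 (-0.42 ± 0.12, adjusted p = 0.0275). Atp5j had 643, 548 and 537 and 547, 416 and 386 CPM, with overlap (-0.35 ± 0.11, adjusted p = 0.0455), and Atp5g3 1414, 1391 and 1347 and 1162, 1059.9 and 1129 (-0.31 ± 0.09, adjusted p = 0.036). Atp5g2, the member with the largest fall in Torin1, had -0.15 ± 0.15. When each library was left out in turn, Cyc1, Uqcrc1, Cox6a1, Cox8a, Atp5g1 and Atp5d were called in 6 of 6 fits, Cox4i1 and Atp5e in 4, Atp5j and Atp5k in 2, Cox7c in 1 and Atp5g3 in 0. Without replicate 1 of ctrl Torin1, Cox4i1 had -0.26 (adjusted p = 0.125), Cox7c -0.18 (adjusted p = 0.382) and Atp5e -0.26 (adjusted p = 0.321). The fit of all 4 conditions together called 5 members, a count not set against the share of all transcripts called in that fit. DESeq2 did not call Cox8a (adjusted p = 0.0623), Atp5k (adjusted p = 0.0638), Cox7c (adjusted p = 0.0813), Atp5j (adjusted p = 0.0924) or Atp5e (adjusted p = 0.294).

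The mRNA differences in Torin1 were small. Where 1.96% of all transcripts were called (0.954% lower and 1.01% higher), Cox7c was higher in the KO, at 101, 90.3 and 94.4 CPM in ctrl and 129.8, 115 and 118 in KO cells (0.35 ± 0.06, adjusted p = 0.0124), and Uqcrc1 lower, at 757, 722 and 761 and 671, 632 and 625 (-0.21 ± 0.05, adjusted p = 0.0358). Neither overlapped between groups. TE was called lower for 3 members, where 2.26% of all transcripts were called lower and 2.85% in either direction, namely Cox7c (-0.71 ± 0.14, adjusted p = 0.00519), Cyc1 (-0.47 ± 0.11, adjusted p = 0.0136) and Atp5g1 (-0.57 ± 0.15, adjusted p = 0.0299). Cox7c thus had more mRNA and fewer footprints in the KO, while its coding windows all occur elsewhere in the genome. The blocked fit called 6 members in mRNA (4 lower and 2 higher, where 4.58 and 4.88% of all transcripts were) and 9 in TE (where 3.52% of all were lower and 1.63% higher), lower for Atp5g1, Atp5j, Atp5k, Cox6a1, Cox7c, Cox8a, Cyc1 and Uqcrc1 and higher for Cox6b1. With 1 library left out, the mRNA calls were kept in 5 of 6 fits for Cox7c and 2 of 6 for Uqcrc1. Cyc1 and Cox7c were called in TE in 12 of 12 fits and Atp5g1 in 5, and the fit of all 4 conditions together called no member in mRNA or TE.

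Whether Torin1 acted differently in the KO was tested as the interaction of genotype and treatment. No member was called in mRNA, footprints or TE by edgeR, where 0%, 0.111% and 0% of all transcripts were called, and DESeq2 called 0 in each. At an unadjusted p under 0.05 there were 0, 2 and 2 members, where 0.975, 6.83 and 5.75% of all transcripts were, namely Uqcrc1 and Atp5j in both footprints and TE. The interaction is the Torin1 log2 fold change in the KO minus that in ctrl cells. In footprints it was -0.46 ± 0.18 for Uqcrc1 (95% interval -0.81 to -0.11, adjusted p = 0.552) and -0.47 ± 0.19 for Atp5j (-0.85 to -0.09, adjusted p = 0.592). The larger number of calls in the KO than in ctrl cells is therefore not shown to be a larger effect. For Atp5g2 the interval of the interaction in footprints was -0.64 to 0.32 and for Cox7a2l -0.28 to 0.87.

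Other genes of the same pathway were read from lists made by role, against 9.93% of all transcripts called lower in footprints in ctrl and 22.1% in KO cells after Torin1. Complex I genes were those with symbols that begin with Ndufa, Ndufb, Ndufc, Ndufs or Ndufv. This rule also takes in Ndufaf assembly factors, and Ndufa4, which is in the complex IV list below as well. Of these genes, 17 of 47 were called lower in footprints and 2 higher in ctrl cells after Torin1 (median -0.40). In the KO 32 were lower and 1 higher (median -0.46). Mitochondrial ribosomal proteins had 25 of 78 called lower in ctrl (median -0.41) and 43 in KO cells (median -0.42). Both medians were near those of the members, -0.42 and -0.53. Cytosolic ribosomal proteins of the large subunit had 48 of 50 lower in each, with medians of -1.99 and -2.07. Those of the small subunit were not in this list. Between KO and ctrl cells in Torin1, 8 of 47 complex I genes and 5 of 78 mitochondrial ribosomal proteins were lower in footprints. Of all transcripts 4.01% were, and the medians of the 2 lists were -0.17 and -0.12.

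Complex II, which lies upstream of complex III, had 0 of 4 subunits called in ctrl cells and 2 of 4 in the KO, Sdhb (-0.41) and Sdhc (-0.38). Sdhc was also lower in KO than in ctrl cells in Torin1, by 0.52 on the log2 scale in footprints (-0.52 ± 0.10). Of complex III assembly factors, Uqcc2 and Bcs1l were lower in both cell types (2 of 5 tested in ctrl and 2 of 6 in KO cells), with Uqcc2 at -0.92 and -1.02, and Bcs1l, which inserts the Rieske protein, at -0.86 and -0.84. Of 26 complex IV assembly factors, 0 were called in ctrl cells and 5 in the KO, all lower, a share of 19.2% where 22.1% of all transcripts were. Among them were Cox18 (-1.19), Cmc1 (-0.75) and Coa3 (-0.58). In TE in the KO, Cox18 (-1.05, adjusted p = 0.0147) and Cmc1 (-0.76, adjusted p = 0.0268) were called lower. Of 6 ATP synthase assembly factors and regulators, 0 were called in ctrl cells and 2 in the KO, Fmc1 (-0.77) and the inhibitor Atpif1 (-0.52). Taco1, an activator of mitochondrial translation of a complex IV subunit, had a higher TE after Torin1 in the KO (0.87 ± 0.20, adjusted p = 0.00209), with less mRNA (-0.48 ± 0.09, adjusted p = 0.00774).

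The leaders of the members were short, with a median of 108 bases where the median of 11344 matched transcripts was 172. A start with C and at least 4 further pyrimidines was found in 4 of 42 members (9.524%) and in 2.318% of all matched transcripts. Of those 4, Cox7a2l was called lower in TE in both cell types, while Uqcrfs1, Atp5mpl and Cox6b1 were called in neither, with -0.14, -0.07 and 0.14 in the KO. Across all transcripts such a start went with a median TE change of -0.18 in both cell types against -0.01 for the others, and 12.71% against 4.09% were called lower in ctrl cells and 25.62% against 17.59% in the KO. Among the members the KO medians were -0.11 for these 4 and -0.40 for the other 38, with 1 and 18 called lower. Leader length and TE change were weakly related over the members, with a Spearman rho of 0.14 in ctrl and 0.10 in KO cells, which turned to -0.043 and -0.10 with the longest annotated leader of each gene. Over all transcripts rho was 0.17 and 0.26. These are descriptions. Atp5d, with one of the lowest TE changes, had the longest leader of the members, 635 bases, and Cox6a1, which was not called in TE after Torin1, the shortest, 31 bases. Annotated starts are those of GENCODE, and the starts used in these cells were not tested.

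In promoters from RefSeq (250 bases before to 50 after the start), 32 of the 42 members were matched, all but Atp5a1, Atp5mpl, Cyc1, Uqcrb, Uqcrc2, Uqcrq, Cox4i1, Cox4i2, Cox6a2 and Cox6c. Motifs of 3 factors known for nuclear-coded respiratory genes were searched on both strands. The palindromic NRF1 motif was present in 7 of 32 (21.88%), namely Atp5g2, Atp5g3, Atp5h, Atp5k, Atp5o, Uqcrc1 and Cox6a1, and in 11.411% of the promoters of transcripts tested. The ETS motif, CCGGAAGT, was present in 4 (12.5%, against 9.295%) and the YY1 motif, AAGATGGC, in 2 (6.25%, against 5.008%). Each motif was counted on its own, whether or not it overlapped another, and a match is a description of these letters in this window.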

How the data were processed

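RNA-seq and Ribo-seq were done on ctrl and eIF4E3 KO N2a cells in DMSO or Torin1. Per the labels and the study's methods, the authors trimmed footprints with cutadapt, mapped the reads of both assays to mm10 with HISAT2 (primary alignments, without rRNA, tRNA and pseudogene reads) and then to canonical transcripts with Bowtie2, and deposited raw counts per transcript in pairwise tables. Versions are not given in the sources used here. The TE tables hold the authors' own comparisons and were not used. Replicate 2 of the ctrl DMSO Ribo-seq was not analysed here.

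Counts were tested with edgeR 4.0.16 in R 4.3.3 (TMM scaling, quasi-likelihood F-test, Benjamini-Hochberg over all transcripts, threshold 0.05), each pair of conditions alone, on transcripts above 1 CPM throughout the libraries of any 1 condition compared. TE was the interaction of assay and condition, fitted over both kinds of library, in place of the ratio test the study used. The genotype by treatment interaction was fitted over all 4 conditions. Levels are TMM-scaled CPM, divided by CDS length where genes are compared. SE values were derived from the log2 fold change and F statistic of the fit. Intervals take the normal distribution, so they are narrower than those of the F-test itself. The main edgeR fit of each comparison was first run on simulated counts. The alternative fits and the descriptive values were not.

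The members and lists were chosen with earlier results of these data known. Per-library values are given for members called between KO and ctrl cells, the 3 with the smallest footprint p for Torin1 in each complex and cell type, the highest in footprints of each complex, Cyc1, Cycs and paralogous forms. Of the pathway lists, at most 3 genes with the smallest p were named.

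The labels state that each replicate was a different passage, so a fit with the replicate number as a block was run beside the main one. Deviations from the condition mean, correlated over transcripts between same-numbered libraries, gave r from -0.04 to 0.74 in RNA-seq and from -0.04 to 0.13 in Ribo-seq. Differently numbered libraries of different conditions gave r from -0.59 to 0.43 in RNA-seq and from -0.13 to 0.12 in Ribo-seq. Whether equal numbers mark paired libraries was not tested.

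Alternatives were DESeq2 1.42.0, no scaling, no filter on low counts, the block, all 4 conditions fitted together and each library left out. Leaders were taken from GENCODE vM21 on GRCm38, where 11344 of 11390 transcripts tested were matched, and promoters from RefSeq on GRCm38.p6. Intervals and SE do not cover errors shared by all libraries.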

Additional observations from a re-analysis of the deposited data

How the results depend on the processing

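No called member changed direction under any alternative. The counts of members below describe how calls moved between settings. They are not set against the share of all transcripts called, so they are not read as particular to the members. The same holds for counts above from alternative fits that stand without that share. DESeq2 gave 1 call in mRNA for Torin1 in ctrl cells, 5 in KO cells, and 6 in TE for KO against ctrl in Torin1. Fitting all 4 conditions together gave 11 and 0 calls in mRNA for Torin1 in ctrl and KO cells, 0 in mRNA for KO against ctrl in Torin1, 5 in footprints and 0 in TE. The replicate block gave 5 and 11 calls in mRNA for Torin1 in ctrl and KO cells, 8 and 6 for KO against ctrl in DMSO and Torin1, and 9 in TE for KO against ctrl in Torin1. For every other comparison it moved the count by less than 1.5 times. Without scaling there were 5 calls in TE for KO against ctrl in Torin1, Torin1 gave a median footprint change of -0.21 for ctrl cells against -0.28 for the KO, and the median TE change turned to 0.052 in ctrl cells and was -0.14 in the KO, while the medians of all transcripts rose to 0.23, 0.26, 0.16 and 0.24. The median leader was 134 bases with the longest annotated leader.

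With 1 library left out, calls for Torin1 ranged from 0 to 21 in ctrl mRNA, 0 to 8 in KO mRNA, 9 to 30 in ctrl footprints, 29 to 34 in KO footprints, 2 to 8 in ctrl TE and 17 to 27 in KO TE. For KO against ctrl in Torin1 they ranged from 0 to 2 in mRNA, 6 to 10 in footprints and 2 to 7 in TE, and for the footprint interaction from 0 to 1, the 1 being without replicate 1 of ctrl DMSO. Without that library, the median footprint change with Torin1 in ctrl cells was -0.19, the TE median turned to 0.15 and the footprint median of KO against ctrl in DMSO to 0.15. Without replicate 3, the TE median of KO against ctrl in DMSO turned to -0.021. Over all libraries left out, the TE median ranged from -0.26 to 0.15 for Torin1 in ctrl cells and from -0.021 to 0.35 for KO against ctrl in DMSO.

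The ctrl DMSO Ribo-seq rested on 2 libraries, 1 of them with 669358 counts, which limits each footprint and TE comparison with ctrl DMSO. Where a group was left with 1 library, that library was assumed to vary like the others. The causes of these changes were not tested.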
